A study of Mus musculus with 36 samples.

Results

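Wild-type mouse microglia were compared after 24 h and after 6 h of interferon-beta, to follow how the transcriptional response to this cytokine changed once its early phase had passed. The 4 arrays, 2 at 6 h and 2 at 24 h, were chosen by their labels and by their place among the first 12 arrays deposited, which also hold the Usp18 knockout (KO) microglia, out of 36 arrays in all. Every culture was primary microglia grown in DMEM GlutaMAX with fetal calf serum, and each stimulated culture received 500 U/ml IFN-b. Untreated wild-type cells (2 arrays) and KO microglia untreated, at 6 h and at 24 h (2 arrays each) complete these 12 arrays, called set 1 here. Later arrays, set 2, hold wild-type microglia and microglia of Usp18_C61A mice at the same times (2 arrays each), and the rest hold BV-2 cells, an immortalised mouse microglial line, with control or Usp18 siRNA. The labels give the replicates as biological repeats and, as used here, name no strain or age. No untreated cells of 6 h or 24 h were analysed here, so time in culture and time with interferon cannot be told apart.

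Type I interferon binds a receptor whose kinases, Jak1 and Tyk2, start a signalling cascade that switches on genes that carry interferon-stimulated response elements in their promoters. The products include antiviral enzymes, guanylate-binding proteins, chemokines and the machinery of antigen presentation. They also include inhibitors of the pathway, among them Usp18, which removes the ubiquitin-like modifier Isg15 from proteins and blocks signalling at the receptor, and Socs1, which binds the kinases. Microglia are the resident macrophages of the brain, and their resting state is marked by a set of surface receptors that is reduced when the cells are activated.

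The values are log2 intensities of Affymetrix probe sets, and 7528 genes were read on set 1, each by its brightest probe set. Levels are given as replicate 1 and replicate 2 in that order, and each change is the 24 h mean minus the 6 h mean on the log2 scale ± its standard error (SE) in a limma fit to the 12 arrays of set 1. A gene rose or fell where its Benjamini-Hochberg adjusted p over all genes tested was under 0.05. Between 6 and 24 h, 543 genes rose (7.21%) and 544 fell (7.23%), together 14.4% of the genes tested, and 2254 had an unadjusted p under that limit. Each list count below is to be read beside these shares of all genes. The median change of all genes tested was 0.08. Arrays with the same replicate number within a genotype deviated together over time, so the number was used as a block, called culture here. The labels name no culture, and what such arrays share was not tested. With culture as a block the count was 2550, or 33.9% of the genes, with 1426 (18.9%) higher and 1124 (14.9%) lower. The count depended on single arrays: it was 288 and 317 without replicate 1 and replicate 2 at 24 h, and 693 and 367 without replicate 1 and replicate 2 at 6 h. For 18 of the 91 genes named here the lower of the 2 means was under 5.62, the lowest median of an array, and their folds rest on a dim level. The 2 arrays of a time correlated at 0.972 at 6 h and 0.980 at 24 h over the genes tested. In set 2, untreated wild-type replicate 1 had Usp18 at 12.98 and Ifit1 at 13.16, beside 9.31 and 8.17 on replicate 2, and the Usp18_C61A array at 6 h replicate 2 had Usp18 at 10.71 beside 13.04. These 2 arrays go against their labels or their replicate, and values from fits that use set 2 are given with and without them. The untreated Usp18_C61A arrays also lay apart, with Usp18 at 10.48 and 8.51 and Ifit1 at 9.87 and 6.98. Both were kept in every fit that uses set 2 and add to its spread.

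Defining markers of microglia were high at both times. Their summed intensity was 60873 to 65695 at 6 h and 67786 to 68284 at 24 h over 13 measured markers of 14, of which 1 rose and none fell. The gene that rose was Aif1, a calcium-binding protein of microglia, at 11.62 and 11.24 at 6 h and 12.32 and 12.20 at 24 h, with adjusted p = 0.0385. For Aif1 this p was 0.0612 without KO 24 h replicate 1, 0.0612 without KO 24 h replicate 2, 0.18 without 24 h replicate 1, 0.0532 without 6 h replicate 1, 0.134 without 24 h replicate 2 and 0.202 without 6 h replicate 2. Markers of other brain cells were also present. The summed intensity of 6 astrocyte markers of 12 was 1145 to 2663 at 6 h and 1745 to 2332 at 24 h, and none of the 6 passed the test. That of 8 oligodendrocyte lineage markers of 11 was 2304 to 3120 untreated, 6210 to 6417 at 6 h and 3031 to 3486 at 24 h. At 6 and 24 h most of this sum was Cnp alone. The mean log2 level of the 8 was 7.12 to 7.76 untreated, 7.25 to 7.73 at 6 h and 6.96 to 7.44 at 24 h. The only member that fell was Cnp, a myelin enzyme that is also induced by interferon (10.34 and 10.25 untreated, 12.23 and 12.44 at 6 h and 11.17 and 11.17 at 24 h, change -1.17 ± 0.17 SE, adjusted p = 0.0039). Of 4 markers of fibroblasts and endothelium of 12, Kdr, a receptor for vascular growth factor, fell from 7.74 and 7.81 to 6.06 and 6.24 (adjusted p = 0.0256). For Kdr this p was 0.136 without 24 h replicate 1, 0.0886 without 6 h replicate 1, 0.105 without 24 h replicate 2 and 0.119 without 6 h replicate 2. The summed intensity of the 4 was 371 to 512 at 6 h and 160 to 255 at 24 h. Of 4 neuronal markers of 9, none passed the test with sums of 110 to 200 at 6 h and 70.3 to 120 at 24 h. The single measured marker each of granulocytes and monocytes and of lymphocytes did not pass. With culture as a block, 3 markers each of oligodendrocytes, neurons and fibroblasts and endothelium were lower at 24 h, as were 2 of microglia, and 1 each of microglia and astrocytes was higher. Whether other cells had a part in the changes below was not tested, and in bulk RNA fewer cells of a type and less RNA per cell cannot be told apart.

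Usp18, the gene removed in the KO cells, was still far above its untreated level at 24 h but lower than at 6 h. It stood at 5.68 and 5.99 in untreated wild-type cells, at 12.56 and 12.41 at 6 h and at 11.15 and 10.71 at 24 h. Both arrays at 24 h lay below both at 6 h and above both untreated ones. The change from 6 to 24 h was -1.56 ± 0.27 SE, adjusted p = 0.00751, and this p was 0.0682 without 24 h replicate 2. In KO microglia the same probe set read 4.40 and 3.77 untreated, 6.42 and 5.85 at 6 h and 5.92 and 5.97 at 24 h, all below the wild-type values of the same times. Which part of the gene the probe set covers was not checked.

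The list of interferon receptor, JAK-STAT and IRF genes held genes that fell and genes that did not. It covers more than the signalling chain of the type I receptor, and Jak2 and Ifngr1 below are not among the kinases and receptor of that chain. Of 18 measured genes of the interferon receptor, JAK-STAT and IRF list, 5 fell, 1 rose and 12 did not pass, with a median change of -0.15. The count of those that fell was 1 without 24 h replicate 1, 2 without 24 h replicate 2 and 2 without 6 h replicate 2. Jak2, a kinase of many cytokine receptors, went from 7.82 and 7.79 untreated to 10.21 and 10.26 at 6 h and back to 8.28 and 8.24 at 24 h, a change of -1.97 ± 0.18 SE with adjusted p = 0.00141. Irf1, an early transcription factor of the interferon response, was 10.79 and 11.17 at 6 h and 9.73 and 9.95 at 24 h against 8.38 and 8.30 untreated (change -1.14 ± 0.18 SE, adjusted p = 0.00509). For Irf1 this p was 0.0509 without 24 h replicate 1. Ifngr1, the ligand-binding chain of the interferon-gamma receptor, was the list's only gene that rose. It was 10.06 and 10.29 untreated, 8.32 and 8.63 at 6 h and 10.05 and 9.90 at 24 h (adjusted p = 0.00888). For Ifngr1 this p was 0.0674 without 24 h replicate 1, 0.0509 without 6 h replicate 1 and 0.0525 without 24 h replicate 2. Irf7, the factor that amplifies type I interferon production and was singled out after its values were seen, did not pass. It was 6.55 and 6.39 untreated, 12.48 and 12.82 at 6 h and 12.53 and 12.74 at 24 h. The arrays of the later times overlapped, with a difference of -0.02 ± 0.18 SE, adjusted p = 0.959.

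**Figure D1:**
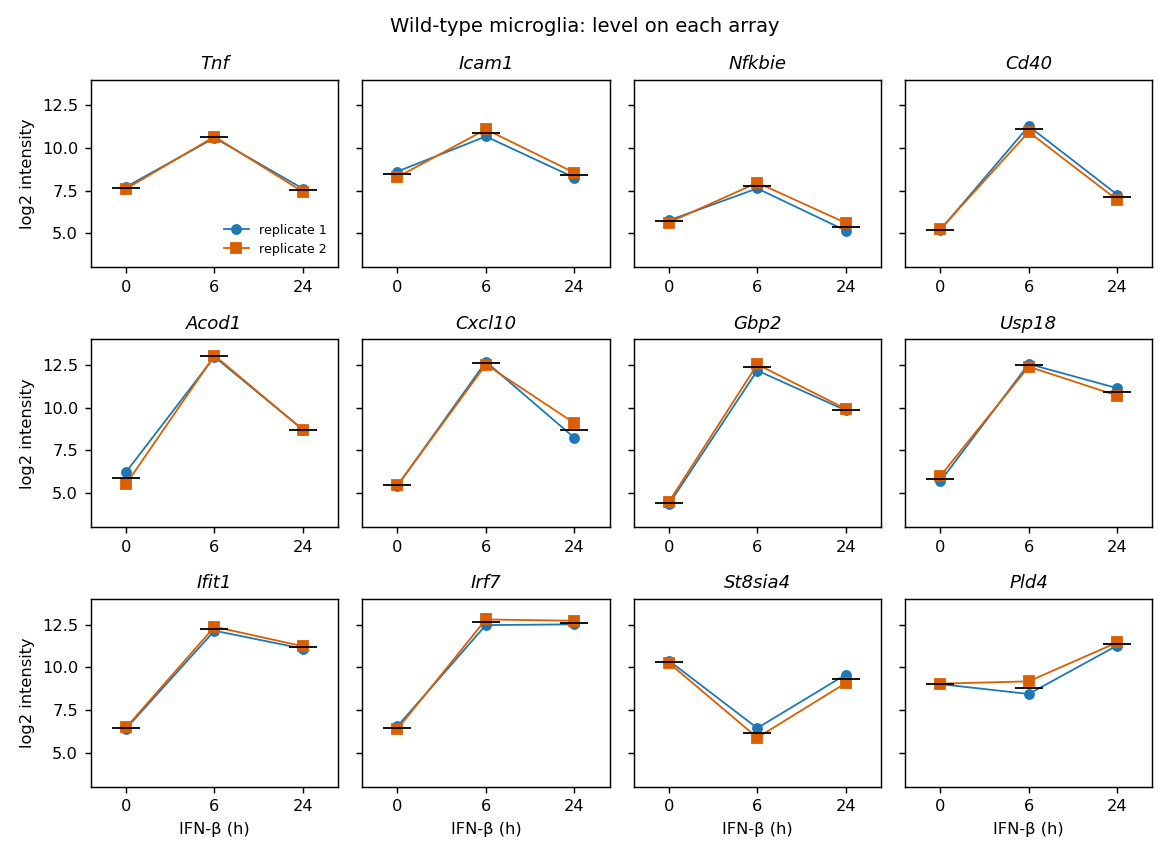
Level of 12 genes on each wild-type array of set 1 at 0, 6 and 24 h of IFN-b (vertical axis, log2 intensity; circles and blue lines, replicate 1; squares and orange lines, replicate 2; black bars, mean of 2 arrays). Tnf, Icam1 and Nfkbie were back near their untreated levels at 24 h, Cxcl10 and Gbp2 stopped well above them, the Irf7 arrays of 6 and 24 h overlapped, and St8sia4 and Pld4 were higher at 24 h than at 6 h.

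Part of the antiviral effectors fell, and most were still above untreated cells at 24 h. Of 27 measured members of the list, 13 fell, 0 rose and 14 did not pass, against 7.23% of all genes tested that fell, and the median change was -0.69. Against untreated cells 25 of the 27 were higher at 6 h and 24 at 24 h, where 11.9% and 3.55% of all genes were; the 3 comparisons share arrays. With culture as a block 20 fell and 1 rose, against 14.9% of all genes that fell in that fit. The count of 13 was 4 without 24 h replicate 1, 6 without 24 h replicate 2 and 4 without 6 h replicate 2. Ifit1, which binds viral RNA caps, was 12.16 and 12.39 at 6 h and 11.10 and 11.24 at 24 h. Both times lay far over the untreated 6.41 and 6.48, with a change of -1.10 ± 0.15 SE and adjusted p = 0.00344. Cmpk2, a mitochondrial nucleotide kinase of the antiviral response, moved from 12.03 and 12.18 to 10.40 and 10.42 against 5.28 and 5.30 untreated (change -1.69 ± 0.18 SE, adjusted p = 0.0019). The 6 h and 24 h arrays of both genes were apart, and those of 24 h were nearer to 6 h than to the untreated ones.

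The dynamin-like GTPases Mx1 and Mx2, which trap viral nucleocapsids, followed the same order. Mx1 was 3.29 and 4.18 untreated, 11.22 and 11.74 at 6 h and 9.81 and 9.99 at 24 h (change -1.58 ± 0.32 SE, adjusted p = 0.0139). For Mx1 this p was 0.0921 without 24 h replicate 1, 0.0714 without 24 h replicate 2 and 0.0949 without 6 h replicate 2. Mx2 was 5.21 and 5.67, 9.41 and 10.03 and 7.63 and 8.17 at the same times (change -1.82 ± 0.33 SE, adjusted p = 0.00938). For Mx2 this p was 0.078 without 24 h replicate 1 and 0.0712 without 6 h replicate 2. Other members did not pass. Oas3, which makes the oligoadenylates that activate RNase L, was 9.57 and 10.07 at 6 h and 10.18 and 11.12 at 24 h, a difference of 0.83 ± 0.34 SE in the other direction (adjusted p = 0.138, and 0.0107 with culture as a block). Oasl1, a relative without that activity, was 10.57 and 10.57 and 9.80 and 9.59 (adjusted p = 0.123, and 0.0306 with the block). Of 4 Schlafen genes none passed, and Slfn1, a regulator of cell growth in lymphocytes and macrophages, was 2.96 and 3.17 untreated, 8.41 and 8.39 at 6 h and 9.11 and 8.76 at 24 h. Of 4 genes of Isg15 conjugation and removal, which include Usp18, 3 fell, and the count was 1 without either KO array at 24 h, either untreated wild-type array, 24 h replicate 1 or 6 h replicate 2, and 0 without 24 h replicate 2.

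Nearly the whole list of interferon-inducible GTPases fell. These proteins attack the vacuoles of intracellular pathogens, and 9 of 10 measured members fell, with a median change of -1.51. All 10 were higher than in untreated cells at both times. Gbp2b stood at 4.26 and 4.82 untreated, 12.25 and 12.28 at 6 h and 9.14 and 9.07 at 24 h, a change of -3.16 ± 0.34 SE with adjusted p = 0.00215. Gbp2 stood at 4.34 and 4.47, 12.18 and 12.54 and 9.84 and 9.93 (change -2.47 ± 0.27 SE, adjusted p = 0.00204). In each gene the 2 arrays of a time were close together and the 3 times were separate. Gbp3 and Gbp7 changed by -2.33 ± 0.34 SE and -2.14 ± 0.20 SE, and the immunity-related GTPases Iigp1 and Ifi47 by less, -1.66 ± 0.24 SE and -1.35 ± 0.15 SE, with adjusted p between 0.00141 and 0.00419 for the 4 genes. The member that did not pass was Gbp6, at 9.11 and 9.29 at 6 h and 8.64 and 8.79 at 24 h (adjusted p = 0.295). Gbp2 and Gbp2b are close relatives, and cross-hybridisation between their probe sets was not tested.

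The calls on these interferon genes depended on which arrays set the spread. In a fit of all 24 microglia arrays of sets 1 and 2 none of the antiviral effectors and none of the GTPases passed, with the same 4 arrays in the contrast. In that fit Ifit1 had adjusted p = 0.619, Gbp2 0.118 and Usp18 0.293. Without the 2 arrays in doubt 7 antiviral effectors and 8 GTPases fell, with adjusted p = 0.232 for Ifit1, 0.00888 for Gbp2 and 0.0323 for Usp18.

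The promoters of 3 of these genes and of the chemokine Cxcl10 are shown because the list of GTPases and that of antiviral effectors hold the core of the interferon-stimulated response element more often than all genes tested. Each runs from 250 bases before the start of transcription to 50 after it, 5′ to 3′ on the strand of the gene, from RefSeq on GRCm38.p6. Capitals mark the response element core GAAANNGAAA and the NF-kB consensus, on either strand and with overlapping matches joined. The positions are chr5:92348840-92349139 (minus strand) for Cxcl10, chr3:142620413-142620712 (plus strand) for Gbp2, chr19:34640639-34640938 (plus strand) for Ifit1 and chr5:120777610-120777909 (minus strand) for Oas3.
Cxcl10: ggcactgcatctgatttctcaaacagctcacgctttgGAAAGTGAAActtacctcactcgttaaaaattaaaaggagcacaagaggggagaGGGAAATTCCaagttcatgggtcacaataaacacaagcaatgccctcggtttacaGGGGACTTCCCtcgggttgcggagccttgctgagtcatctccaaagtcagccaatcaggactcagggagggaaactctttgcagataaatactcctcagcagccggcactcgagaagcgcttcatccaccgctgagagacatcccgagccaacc
Gbp2: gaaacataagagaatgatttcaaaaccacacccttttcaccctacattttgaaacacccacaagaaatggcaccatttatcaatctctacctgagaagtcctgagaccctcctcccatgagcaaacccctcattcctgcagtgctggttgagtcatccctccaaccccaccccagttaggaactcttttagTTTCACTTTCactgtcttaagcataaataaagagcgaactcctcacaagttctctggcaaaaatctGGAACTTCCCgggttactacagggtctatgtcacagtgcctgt
Ifit1: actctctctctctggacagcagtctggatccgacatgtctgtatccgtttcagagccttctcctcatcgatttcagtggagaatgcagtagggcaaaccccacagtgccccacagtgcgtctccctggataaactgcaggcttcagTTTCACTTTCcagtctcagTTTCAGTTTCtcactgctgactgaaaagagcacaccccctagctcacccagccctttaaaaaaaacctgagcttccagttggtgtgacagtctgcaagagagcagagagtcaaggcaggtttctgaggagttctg
Oas3: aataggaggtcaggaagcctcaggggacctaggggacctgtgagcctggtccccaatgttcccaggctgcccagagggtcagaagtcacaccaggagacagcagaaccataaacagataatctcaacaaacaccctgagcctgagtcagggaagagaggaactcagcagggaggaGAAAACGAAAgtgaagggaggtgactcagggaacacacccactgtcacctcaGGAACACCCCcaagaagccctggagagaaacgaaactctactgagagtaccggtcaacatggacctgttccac
The Cxcl10 window has 1 response element core that starts 213 bases before the transcription start and 2 NF-kB matches that start 159 and 104 bases before it. Gbp2 has a core at 59 bases before the start and an NF-kB match past it, Ifit1 has 2 cores at 104 and 85 bases and no NF-kB match, and Oas3 has a core at 75 bases and an NF-kB match at 23 bases. So a gene that fell by much, one that fell by less and one that did not pass all carry the core in this window. RefSeq promoters were found for 6183 of the 7528 genes, in 8014 windows. The core was present in 3.44% of all 32851 promoters of that table, in 3.39% of the windows of genes tested, in 7.16% of those of genes that fell, in 2.06% of those of genes that rose and in 3.19% of those of genes that did not pass. It was in 7 of 9 windows of the GTPases, 11 of 27 of the antiviral effectors, 2 of 5 of the CXC chemokines, 2 of 12 of the inflammatory mediators and none of 5 of the CC chemokines. The NF-kB consensus was in 8.46% of all promoters and in 10.6% of the windows of genes tested. It was in 69 of 573 windows of genes that fell, in 64 of 582 of genes that rose and in 10.4% of those of genes that did not pass. It was in 3 of 12 windows of the inflammatory mediators, 7 of 27 of the antiviral effectors, 5 of 22 of the feedback inhibitors, 2 of 5 of the CXC chemokines, 1 of 5 of the CC chemokines, 1 of 9 of the GTPases and 1 of 6 of the co-stimulatory molecules. A match describes the letters in this window and shows no binding.

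Receptors and adaptors that sense viral and bacterial products also fell in part. Of 16 measured sensors and adaptors 6 fell, 1 rose and 9 did not pass, with a median of -0.67. The 6 became 2 without 24 h replicate 1, 2 without 24 h replicate 2 and 2 without 6 h replicate 2. Tlr3, the endosomal receptor for double-stranded RNA, was 5.92 and 6.11 untreated, 9.93 and 9.62 at 6 h and 8.05 and 8.07 at 24 h (change -1.71 ± 0.27 SE, adjusted p = 0.00508). Myd88, the adaptor of most Toll-like receptors, was 9.60 and 9.39, 11.35 and 11.56 and 10.25 and 10.37 (change -1.14 ± 0.16 SE, adjusted p = 0.0035). Both genes lay between their untreated and 6 h levels at 24 h, with no overlap of arrays.

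Among the chemokines were some of the largest falls and some genes that did not pass. Of 7 measured CXC chemokines 3 fell and none rose (median -1.56). Of 9 CC chemokines 5 fell and none rose (median -1.40). The latter count was 2 without 24 h replicate 1, 3 without 6 h replicate 1, 1 without 24 h replicate 2 and 2 without 6 h replicate 2. Cxcl10, a ligand of Cxcr3 that draws T cells, was 5.43 and 5.45 untreated, 12.70 and 12.53 at 6 h and 8.24 and 9.10 at 24 h. Its change of -3.95 ± 0.25 SE is a 15.4-fold lower signal on the linear scale (adjusted p = 0.000725), and it was still above untreated cells at 24 h (difference 3.23 ± 0.25 SE, adjusted p = 7.97e-05). Cxcl11, another ligand of that receptor, fell from 11.01 and 10.61 to 6.17 and 6.27 against 4.95 and 4.10 untreated, a change of -4.59 ± 0.62 SE with adjusted p = 0.00333. Its difference from untreated cells at 24 h did not pass (adjusted p = 0.21, and 0.0238 with culture as a block). The third ligand, Cxcl9, was 3.14 and 3.02, 11.44 and 11.21 and 10.05 and 9.48, and its change of -1.56 ± 0.71 SE did not pass (adjusted p = 0.179).

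Among the CC chemokines, Ccl12 and Ccl2, which attract monocytes through Ccr2, fell together. Ccl12 was 4.16 and 4.60 untreated, 12.26 and 12.09 at 6 h and 9.52 and 9.61 at 24 h (change -2.61 ± 0.32 SE, adjusted p = 0.00278). Ccl2 was 6.66 and 6.77, 11.94 and 11.81 and 8.90 and 8.29 (change -3.28 ± 0.53 SE, adjusted p = 0.0058). For Ccl2 this p was 0.0531 without 24 h replicate 2. Ccl5, which attracts T cells and monocytes, did not pass. It was 6.31 and 5.67 untreated, 12.31 and 12.19 at 6 h and 12.47 and 12.61 at 24 h, a difference of 0.29 ± 0.31 SE with adjusted p = 0.58.

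Among the inflammatory mediators, Tnf was back near its untreated level by 24 h. Of 13 measured members of the list 7 fell and none rose (median -1.23). The 7 became 3 without 24 h replicate 1, 4 without 6 h replicate 1, 4 without 24 h replicate 2 and 3 without 6 h replicate 2. Tnf, the cytokine, was 7.71 and 7.60 untreated, 10.59 and 10.66 at 6 h and 7.61 and 7.43 at 24 h. Its 24 h arrays overlapped the untreated ones and were 8.63-fold below 6 h (change -3.11 ± 0.33 SE, adjusted p = 0.00193). Acod1, the enzyme that makes itaconate in activated macrophages, went from 6.23 and 5.52 to 12.98 and 13.06 and down to 8.71 and 8.71, a change of -4.31 ± 0.33 SE, or 19.9-fold (adjusted p = 0.00111), and stayed above untreated cells at 24 h (adjusted p = 0.00125). Csf1, the growth factor of macrophages, was 7.78 and 7.56 at 6 h and 5.41 and 6.39 at 24 h (untreated 4.75 and 4.75; adjusted p = 0.00558). Il6 was dim throughout, at 4.35 and 3.35 at 6 h and 2.86 and 3.03 at 24 h, and Ptgs2, the inducible cyclooxygenase, was 5.01 and 4.16 and 3.31 and 2.69. Neither passed (adjusted p = 0.547 and 0.289), and with culture as a block Ptgs2 had adjusted p = 0.00261.

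The largest falls also included genes outside the lists. Mmp13, a collagenase, had the lowest change of the 7528 genes. It was 5.54 and 6.52 untreated, 11.77 and 12.14 at 6 h and 7.11 and 7.55 at 24 h, a change of -4.63 ± 0.38 SE, adjusted p = 0.00111. Slamf8, a macrophage surface protein of the SLAM family, was 4.92 and 5.42, 9.21 and 9.36 and 5.95 and 5.94 (change -3.34 ± 0.27 SE). Glipr2 was 4.54 and 3.85, 7.67 and 7.97 and 4.26 and 4.58 (change -3.40 ± 0.28 SE). Their adjusted p were 0.00111 and 0.00111. Lhx2, a homeobox factor, was dim untreated and at 24 h, at 3.92 and 3.26 and 3.23 and 3.43, against 7.41 and 7.50 at 6 h (change -4.13 ± 0.67 SE, adjusted p = 0.00577). For Lhx2 this p was 0.05 without 24 h replicate 1. Procr, the endothelial protein C receptor, changed by -3.14 ± 0.44 SE and Aldh1b1, a mitochondrial aldehyde dehydrogenase, by -2.91 ± 0.32 SE (adjusted p = 0.00373 and 0.00216). Gch1, the first enzyme of tetrahydrobiopterin synthesis, fell from 11.17 and 11.28 to 8.67 and 8.92 against 7.37 and 7.29 untreated (change -2.43 ± 0.30 SE, adjusted p = 0.00278). Ch25h, which makes an oxysterol, fell from 12.21 and 12.37 to 9.59 and 9.09 against 9.50 and 9.95 (change -2.95 ± 0.36 SE, adjusted p = 0.00264). Of 7 arginine, tryptophan and polyamine enzymes 4 fell (median -1.57), a count of 1 without 24 h replicate 1, 2 without 24 h replicate 2 and 2 without 6 h replicate 2.

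Co-stimulatory and checkpoint molecules had the lowest median of the lists, -2.01, with 6 of 9 measured members lower at 24 h and none higher. The 6 became 3 without 24 h replicate 1. Cd40, the receptor through which T cells license antigen-presenting cells, was 5.19 and 5.23 untreated, 11.28 and 10.94 at 6 h and 7.27 and 6.96 at 24 h (change -4.00 ± 0.36 SE, adjusted p = 0.00141). Icam1, an adhesion ligand for leukocyte integrins, was 8.62 and 8.29, 10.67 and 11.09 and 8.26 and 8.55, so its 24 h arrays overlapped the untreated ones (change -2.48 ± 0.34 SE, adjusted p = 0.00366). Tnfsf10, the death ligand TRAIL, was 4.08 and 3.72, 8.42 and 8.46 and 5.10 and 5.54 (change -3.12 ± 0.39 SE, adjusted p = 0.00278). Tnfsf9, the ligand of 4-1BB, changed by -1.97 ± 0.32 SE (adjusted p = 0.00615, and 0.0505 without 24 h replicate 1). Cd274, the checkpoint ligand PD-L1, changed by -2.02 ± 0.35 SE (adjusted p = 0.00702). For Cd274 this p was 0.0615 without 24 h replicate 1 and 0.055 without 6 h replicate 2. Lgals9, a galectin that binds Tim-3, did not pass, with 12.30 and 12.50 at 6 h and 11.74 and 12.09 at 24 h (adjusted p = 0.1, and 0.0341 with culture as a block).

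Feedback inhibitors of cytokine and Toll-like receptor signalling fell in part, some of them to near their untreated level. Of 22 measured members 8 fell, none rose and 14 did not pass (median -0.92). With culture as a block 13 fell and 1 rose. The count of 8 was 4 without 24 h replicate 1, 5 without 6 h replicate 1, 5 without 24 h replicate 2 and 4 without 6 h replicate 2. Socs1 was 4.56 and 4.34 untreated, 7.34 and 7.43 at 6 h and 5.07 and 5.18 at 24 h (change -2.27 ± 0.35 SE, adjusted p = 0.00505). Nfkbie, an inhibitor that holds NF-kB in the cytoplasm, was 5.75 and 5.62, 7.62 and 7.96 and 5.15 and 5.61 (change -2.41 ± 0.25 SE, adjusted p = 0.0019). Dusp2, a phosphatase of MAP kinases, was 6.17 and 5.51, 8.45 and 8.32 and 6.15 and 6.09 (change -2.26 ± 0.35 SE, adjusted p = 0.00506). The untreated and 24 h arrays of Dusp2 overlapped. Those of Nfkbie were lower at 24 h and those of Socs1 higher, each by under 1 unit between the means. Il1rn, the antagonist of the interleukin-1 receptor, fell from 10.56 and 10.63 to 6.87 and 7.48 (adjusted p = 0.00991). For Il1rn this p was 0.0776 without 24 h replicate 1 and 0.0629 without 6 h replicate 2. Socs3, which inhibits interleukin-6 signalling, and Tnfaip3, which ends NF-kB signalling, had changes of -2.01 ± 0.64 SE and -1.16 ± 0.34 SE that did not pass (adjusted p = 0.0689 and 0.0524) but passed with culture as a block (adjusted p = 0.00255 and 0.00372).

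Of 9 NF-kB subunits and regulators 3 fell and none rose (median -1.20), and 6 fell with the block. The count of 3 was 1 without 24 h replicate 1, 1 without 24 h replicate 2 and 1 without 6 h replicate 2. Relb, a subunit of the non-canonical pathway, was 7.56 and 7.50 untreated, 8.75 and 9.18 at 6 h and 7.36 and 7.46 at 24 h (change -1.56 ± 0.23 SE, adjusted p = 0.00444). Of 17 immediate early genes 3 fell, none rose (median -0.33) and 6 fell with the block, where 7.23% and 14.9% of all genes fell in these fits. The count of 3 was 0 without 24 h replicate 1, 0 without 6 h replicate 1, 0 without 24 h replicate 2 and 0 without 6 h replicate 2. Of 12 TRIM and PARP genes, many of them interferon-induced, 5 fell and none rose (median -0.65), with 9 under the block. The count of 5 was 1 without 24 h replicate 1, 3 without 6 h replicate 1, 0 without 24 h replicate 2 and 1 without 6 h replicate 2.

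Genes of antigen presentation passed in either direction. Of 12 measured genes of class I processing 3 fell and 1 rose (median -0.14), while against untreated cells 8 were higher at 6 h and 11 at 24 h. The count of 3 was 1 without 24 h replicate 1, 1 without 24 h replicate 2 and 1 without 6 h replicate 2. Tap2, a subunit of the peptide transporter, fell from 9.70 and 9.82 to 8.37 and 8.47 (change -1.33 ± 0.18 SE, adjusted p = 0.00333) and was 1.59 ± 0.18 SE above untreated cells at 24 h (adjusted p = 0.00101). H2-M3, a class Ib molecule that presents formylated peptides, rose from 9.74 and 9.36 to 10.81 and 10.51 (untreated 9.18 and 8.85; adjusted p = 0.00926). For H2-M3 this p was 0.0782 without 24 h replicate 1 and 0.0674 without 6 h replicate 2. The classical heavy chain H2-K1 was 12.49 and 12.61 untreated, 12.81 and 13.18 at 6 h and 13.51 and 13.56 at 24 h, a change of 0.54 ± 0.16 SE with adjusted p = 0.0544 (0.0184 with culture as a block). Near-identical class I genes may share its probes. None of 6 class II genes passed.

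Of 16 measured cell death genes 6 fell and 1 rose (median -0.45). The count of 6 was 2 without 24 h replicate 1 and 2 without 6 h replicate 2. Casp4, the inflammatory caspase that senses lipopolysaccharide, went from 8.37 and 8.63 untreated to 11.44 and 11.52 and 9.43 and 9.67 (change -1.93 ± 0.26 SE, adjusted p = 0.00333). Daxx, a chromatin protein that also binds Fas, was 8.09 and 8.17, 11.42 and 11.60 and 10.14 and 10.28 (change -1.30 ± 0.17 SE, adjusted p = 0.00308). The gene that rose was Bcl2l11, the pro-apoptotic protein Bim, which was lower at 6 h than before. Its levels were 9.25 and 9.53 untreated, 7.67 and 8.12 at 6 h and 9.38 and 9.85 at 24 h (change 1.72 ± 0.27 SE, adjusted p = 0.00506). Of 10 complement genes only Serping1, the C1 inhibitor, fell, from 5.79 and 6.03 to 4.68 and 4.40 (adjusted p = 0.00333). Its adjusted p was 0.721 in the limma fit of 24 arrays and 0.657 in that fit without the 2 arrays in doubt. Factor B, Cfb, was 3.71 and 4.33 untreated, 8.54 and 8.44 at 6 h and 8.95 and 8.59 at 24 h (adjusted p = 0.768). C2 was 5.50 and 6.10, 7.51 and 8.35 and 8.31 and 9.05 (adjusted p = 0.204, and 0.0123 with culture as a block).

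**Figure D2:**
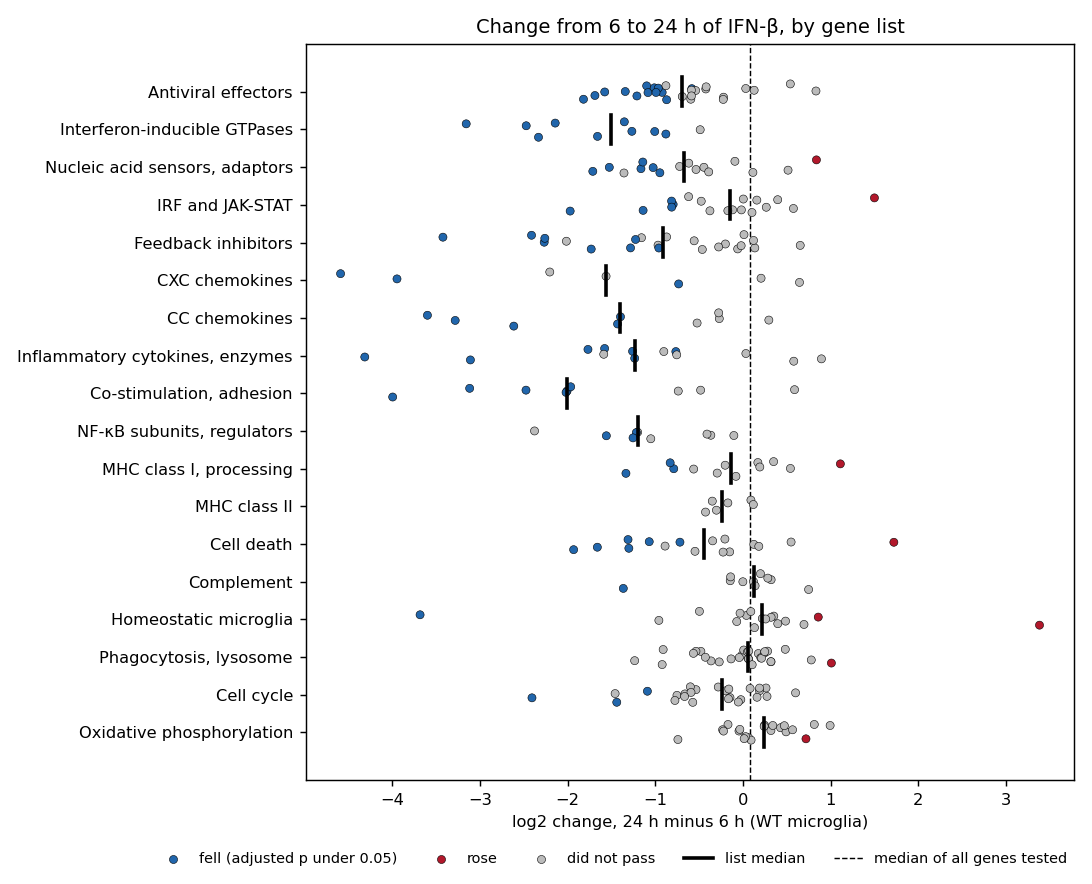
Change from 6 to 24 h (horizontal axis, log2 scale) of every measured member of 18 gene lists in wild-type microglia; blue points fell, red points rose and grey points did not pass, thick lines are list medians and the dashed line is the median of all genes tested, 0.08. The co-stimulation list has the lowest median, -2.01, antiviral effectors sit between it and the dashed line at -0.69, and the lists of phagocytosis, complement and oxidative phosphorylation lie around the dashed line.

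Most of the largest rises, but not all, were in genes that were below their untreated level at 6 h. St8sia4, a polysialyltransferase, was 10.40 and 10.27 untreated, 6.44 and 5.88 at 6 h and 9.58 and 9.08 at 24 h, a change of 3.17 ± 0.30 SE, or 8.98-fold (adjusted p = 0.00141). Dkk2, a secreted modulator of Wnt signalling, was 8.21 and 8.98, 2.98 and 3.33 and 6.54 and 6.01 (change 3.12 ± 0.46 SE, adjusted p = 0.00419) and stayed below untreated cells (adjusted p = 0.0228). Arrb1, which desensitises G protein-coupled receptors, was 7.87 and 8.03, 5.23 and 5.46 and 7.88 and 8.23 (change 2.71 ± 0.34 SE, adjusted p = 0.00278). Its 24 h arrays overlapped the untreated ones. St6gal1, a sialyltransferase of N-glycans, was 10.43 and 10.79 untreated, 6.67 and 7.12 at 6 h and 9.79 and 10.06 at 24 h (change 3.03 ± 0.69 SE, adjusted p = 0.0212). For St6gal1 this p was 0.0936 without 24 h replicate 1, 0.101 without 6 h replicate 1, 0.12 without 24 h replicate 2 and 0.0802 without 6 h replicate 2. Ptpn22, a phosphatase that restrains immune receptor signalling, was 6.44 and 5.46, 3.40 and 3.48 and 6.19 and 5.95 (change 2.63 ± 0.49 SE, adjusted p = 0.0104). For Ptpn22 this p was 0.0756 without 24 h replicate 1, 0.0598 without 24 h replicate 2 and 0.061 without 6 h replicate 2.

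The same course was seen for Gpr155, at 7.70 and 8.23 untreated, 6.13 and 5.96 at 6 h and 8.63 and 8.50 at 24 h (change 2.52 ± 0.34 SE, adjusted p = 0.00333). The ubiquitin ligase Wwp1 was 10.40 and 10.76, 8.35 and 8.29 and 10.57 and 10.70 (change 2.31 ± 0.26 SE, adjusted p = 0.00237). The thiamine transporter Slc19a2 changed by 2.19 ± 0.25 SE, thrombomodulin, Thbd, by 2.04 ± 0.26 SE and Tmem71 by 2.01 ± 0.27 SE (adjusted p = 0.00237, 0.00278 and 0.00333). Pld4, an endolysosomal exonuclease that degrades nucleic acids which would trigger Toll-like receptors, took another course. It was 9.02 and 9.05 untreated and 8.44 and 9.19 at 6 h, and rose to 11.28 and 11.47 at 24 h, above both (change 2.56 ± 0.24 SE, adjusted p = 0.00141; against untreated cells 2.34 ± 0.24 SE, adjusted p = 0.000557).

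In the list of resting microglia genes, Gpr34 and Mertk rose and Gpr84 fell. Gpr84 is on the list although it is high in activated microglia, and it was above its untreated level at 6 h. Its fall is thus not that of a resting marker. Of 17 measured members 2 rose and 1 fell (median 0.22), against 7.21% and 7.23% of all genes tested. The count of those that rose was 0 without 24 h replicate 1, 1 without 6 h replicate 1, 1 without 24 h replicate 2 and 1 without 6 h replicate 2. Gpr34, a lysophosphatidylserine receptor of resting microglia, was 7.33 and 8.95 untreated, 2.53 and 2.85 at 6 h and 6.21 and 5.94 at 24 h (change 3.38 ± 0.56 SE, adjusted p = 0.0065). For Gpr34 this p was 0.0549 without 24 h replicate 1. Mertk, a receptor for apoptotic cells, rose from 8.62 and 8.59 to 9.48 and 9.45 (adjusted p = 0.0237). For Mertk this p was 0.122 without 24 h replicate 1, 0.0824 without 6 h replicate 1, 0.113 without 24 h replicate 2 and 0.107 without 6 h replicate 2. Gpr84, a receptor for medium-chain fatty acids that is high in activated microglia, fell from 10.61 and 10.85 to 7.22 and 6.87 against 8.23 and 7.91 untreated (change -3.68 ± 0.36 SE, adjusted p = 0.00177). P2ry12, the purinergic receptor that guides microglial processes, was 6.75 and 7.14 untreated, 8.49 and 8.82 at 6 h and 8.29 and 8.03 at 24 h, and its difference of -0.50 ± 0.19 SE did not pass (adjusted p = 0.121, and 0.061 with culture as a fixed and 0.0462 as a random block).

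Of 29 measured phagocytic and lysosomal genes only Ctsh, the lysosomal protease cathepsin H, rose and none fell (median 0.06), against 7.21% and 7.23% of all genes tested. Ctsh was 9.77 and 9.29 untreated, 10.10 and 9.88 at 6 h and 11.05 and 10.95 at 24 h (adjusted p = 0.0108). For Ctsh this p was 0.0795 without 24 h replicate 1, 0.0616 without 24 h replicate 2 and 0.0745 without 6 h replicate 2. None of 10 genes of border macrophages and scavenger receptors passed (median -0.42). The widest difference among them was that of F13a1, a transglutaminase of perivascular macrophages, at 7.91 and 9.45 at 6 h and 5.07 and 6.20 at 24 h (change -3.05 ± 1.31 SE, adjusted p = 0.158, and 0.00745 with culture as a block). The mannose receptor Mrc1 was 9.97 and 10.31 and 8.50 and 8.51 (adjusted p = 0.204).

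Genes of metabolism, stress and growth passed in either direction. Over 7 lists (cholesterol synthesis, endoplasmic reticulum stress, heat shock, glycolysis, oxidative phosphorylation, ribosome biogenesis, cell cycle) 11 of 130 measured genes fell and 5 rose, against 7.23% and 7.21% of all genes. The 11 were 7 without replicate 1 or replicate 2 at 24 h or replicate 2 at 6 h, and the 5 were 1 without any one of these and 2 without an untreated wild-type array or a KO array at 24 h. Pfkp, the platelet form of phosphofructokinase, was 7.66 and 7.33 untreated, 9.66 and 9.75 at 6 h and 7.41 and 7.84 at 24 h (change -2.09 ± 0.31 SE, adjusted p = 0.00444). Slc2a1, the glucose transporter, was 8.06 and 7.92, 8.98 and 9.22 and 7.79 and 7.57 (change -1.42 ± 0.19 SE, adjusted p = 0.00322). Hif1a, the oxygen-regulated transcription factor, changed by -0.97 ± 0.14 SE (adjusted p = 0.00388). Chac1, which degrades glutathione in the integrated stress response, fell from 8.35 and 7.51 to 5.54 and 5.08 against 4.76 and 4.43 untreated (adjusted p = 0.00444). Dnajb9, a chaperone of the endoplasmic reticulum, rose from 7.56 and 7.45 to 8.88 and 8.56 against 8.78 and 8.89 (adjusted p = 0.00333). Ddit3, the stress factor CHOP, was 7.44 and 7.63 untreated, 9.87 and 9.36 at 6 h and 10.57 and 10.72 at 24 h (adjusted p = 0.208, and 0.025 with culture as a block). The G1 cyclin Ccnd2 fell from 9.62 and 9.39 to 7.39 and 6.81 and the ribosome assembly factor Wdr43 from 9.02 and 9.14 to 7.93 and 7.87 (adjusted p = 0.00419 and 0.00509).

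A list of interferon-induced genes from other arrays gave the course of the genes raised in BV-2 cells. Tnf, Cd40, Acod1, Icam1 and Nfkbie are not on it. In BV-2 cells with control siRNA 71 genes rose from untreated to 6 h (0.991% of those tested), 70 of them by at least 1 log2 unit, and 69 of these were measured in set 1. In wild-type microglia 37 of the 69 fell from 6 to 24 h and none rose, against 7.23% and 7.21% of all genes tested. Of the 69, 63 had a lower mean at 24 h, and their median change was -0.81. The median difference of the 69 from untreated cells was 3.38 at 6 h and 2.68 at 24 h. At 24 h 61 were still higher than untreated, against 3.55% of all genes tested. Cxcl10 had the lowest change and Oas3 the highest. The 37 became 18 and 22 without replicate 1 and replicate 2 at 24 h and 20 without replicate 2 at 6 h, 48 with culture as a block, 6 in the fit of 24 arrays and 26 in that fit without the 2 arrays in doubt. In the BV-2 cells themselves no gene passed between 6 and 24 h in limma, with 389 at an unadjusted p under 0.05.

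**Figure D3:**
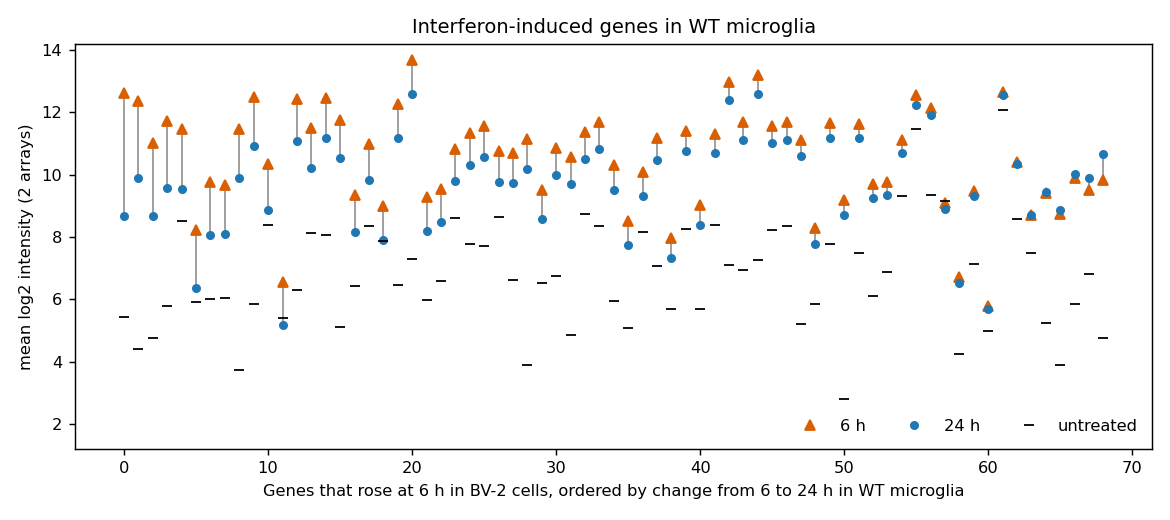
Mean log2 intensity of 2 wild-type arrays (vertical axis) for each of the 69 genes that rose at 6 h in BV-2 cells, ordered by their change from 6 to 24 h (horizontal axis); orange triangles are 6 h, blue circles 24 h and black dashes untreated cells. For 63 genes the 24 h point is below the 6 h point, and most 24 h points stay far above the dash.

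KO microglia showed a smaller number of changes over the same interval. In KO cells 240 genes rose (3.19%) and 94 fell (1.25%) from 6 to 24 h, 4.44% of the genes tested. With culture as a block 1524 passed (20.2%), 939 higher (12.5%) and 585 lower (7.77%). The count of 334 was 0 without either KO array at 24 h, 135 and 102 without KO replicate 1 and replicate 2 at 6 h, 109 to 110 without a wild-type array at 0 h or 24 h and 198 without one at 6 h. The difference between the genotypes was tested as an interaction. It passed for 2 genes (0.0266%), both with a deeper fall in wild-type cells, and 1173 had an unadjusted p under 0.05. With culture as a block it passed for 780 genes (10.4%), 443 (5.88%) with a lower and 337 (4.48%) with a higher change in wild-type cells. The count of 2 was 0 without either KO array at 24 h, without KO replicate 2 at 6 h and without any untreated or 6 h wild-type array, 1 without either wild-type array at 24 h, 4 without KO replicate 1 at 6 h and 79 without either untreated KO array.

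The 2 genes were Cxcl10 and Acod1, and in both the KO cells were high already without interferon. Cxcl10 was 12.63 and 12.37 in untreated KO cells, 12.95 and 12.95 at 6 h and 12.81 and 12.83 at 24 h, a change of -0.13 ± 0.25 SE from 6 to 24 h. The genotypes differed in that change by -3.82 ± 0.35 SE (adjusted p = 0.0174). Acod1 was 12.22 and 11.17 untreated, 12.60 and 12.87 at 6 h and 12.53 and 12.54 at 24 h in KO cells, a change of -0.20 ± 0.33 SE, and the genotypes differed by -4.12 ± 0.47 SE (adjusted p = 0.0497). At 6 h the wild-type and KO levels of both genes were within 1 unit of each other, and at 24 h they were apart.

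Of the 53 genes named here that fell in wild-type cells, 48 differed between the genotypes in the blocked fit, and in the same fit 10 also fell in KO cells, Mmp13, Cd40 and Tnf among them. Without the block 3 fell in KO cells (Dusp2, Glipr2 and Slc2a1). The 48 include Gbp2 (KO change 0.04 ± 0.27 SE, adjusted p of the difference 0.0036 with culture as a block and 0.0647 without), Ccl12 (KO change -0.24 ± 0.32 SE, 0.00948 and 0.0932) and Nfkbie (KO change 0.05 ± 0.25 SE, 0.00697 and 0.0643). Of the 19 that rose, 10 differed in the blocked fit, and in the same fit 10 also rose in KO cells, Pld4 and Ptpn22 among them. Without the block 4 rose in KO cells (St8sia4, Slc19a2, Ifngr1 and Dnajb9). These genes were chosen by their wild-type change, so the shares describe them and are no test.

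**Figure D4:**
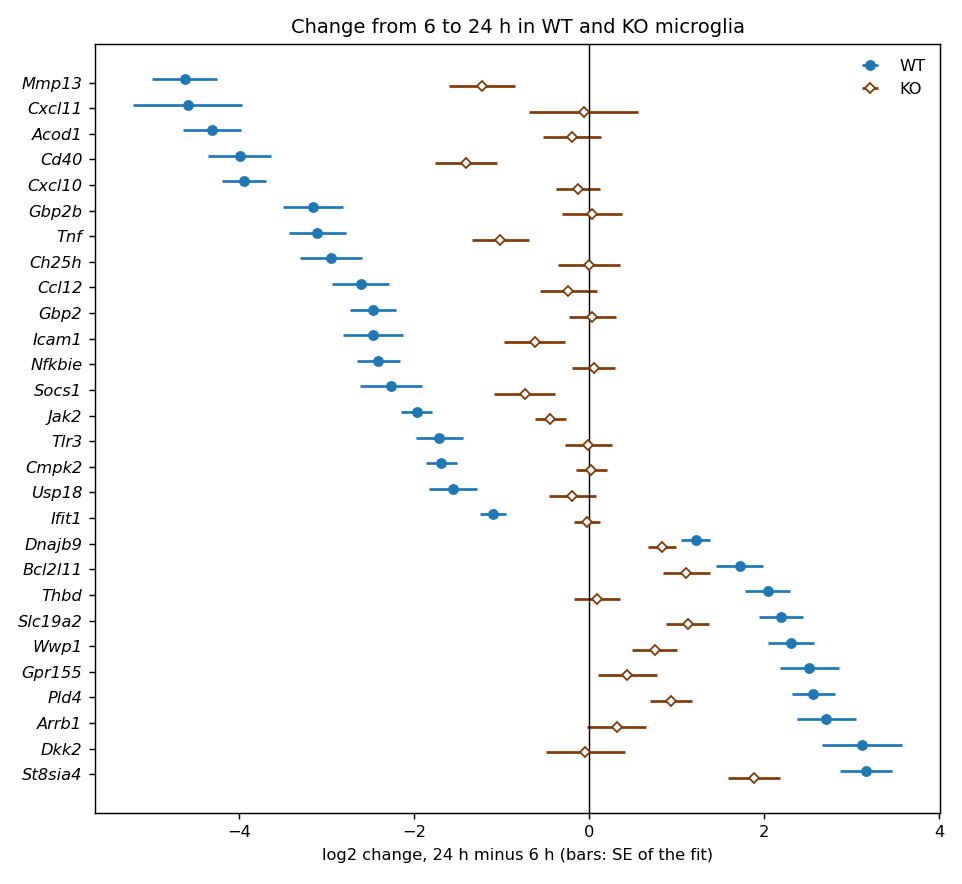
Change from 6 to 24 h (horizontal axis, log2 scale) of 28 genes in wild-type (blue circles) and KO microglia (brown diamonds) of set 1, with bars for the SE of the fit. The genes were chosen by their wild-type change; Cxcl10 changed by -3.95 in wild-type and by -0.13 in KO cells, and St8sia4 by 3.17 and 1.89.

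In the other set of wild-type arrays part of the genes took another course. In set 2 no gene passed between 6 and 24 h in limma, with 490 at an unadjusted p under 0.05 in the fit of 24 arrays. Without the 2 arrays in doubt none passed in limma either, with 700 at that unadjusted p. The change differed between the sets for 72 of 7960 genes (0.905%), lower in set 1 for 48 (0.603%) and higher for 24 (0.302%), and for 176 without the 2 arrays in doubt. The count of 72 was 446 with culture as a block. Leaving out a single wild-type array of either set gave 8 to 132. It was 8 and 12 without replicate 1 and replicate 2 of set 1 at 24 h, 132 and 14 without those at 6 h, 13 and 21 without replicate 1 and replicate 2 of set 2 at 24 h and 10 without either at 6 h. Tnf in set 2 was 10.22 and 9.88 at 6 h and 10.15 and 10.07 at 24 h, and Acod1 was 13.04 and 13.02 and 12.84 and 12.77, so both stayed high where set 1 fell. Untreated wild-type cells of set 2 already had Tnf at 10.4 and 9.0 and Acod1 at 13.2 and 11.8, with replicate 1 an array in doubt. In set 1 the untreated levels were 7.7 and 7.6 for Tnf and 6.2 and 5.5 for Acod1. Cxcl10 was 12.41 and 12.34 and 11.44 and 11.58, and its difference between the sets did not pass in the fit of 24 arrays (adjusted p = 0.391) but passed without the 2 arrays in doubt, at -3.08 ± 0.60 SE (adjusted p = 0.0236). For Usp18, at 12.96 and 12.82 and 12.67 and 12.69, the difference did not pass (adjusted p = 0.743, and 0.321 without them). Even on replicate 2 the untreated wild-type level of Usp18 was far higher in set 2, at 9.31, than in set 1. From untreated wild-type cells to 6 h only 1 of 7960 genes passed in set 2 in limma, with an array in doubt on the untreated side. An absent fall from 6 to 24 h in set 2 is thus no sign that a response to interferon lasted there. Which arrays are set 1 was read from the order of deposition, and the set and the cultures cannot be told apart.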

How the data were processed

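The deposited table holds log2 intensities of 22690 Affymetrix probe sets on 36 arrays, as the authors made them; the submitters' processing notes name affy, and how probes were summarised, how arrays were normalized and which log base was taken is not given in the sources used here. Values were used as deposited. GEO's platform annotation gave 1 gene for 20393 probe sets, several for 691 and none listed for 1606. A probe set was kept if it was above the array median on at least 2 of the 12 arrays of set 1, and the brightest of a gene's kept probe sets stood for the gene. The 12 arrays were fitted as 6 group means with limma 3.58.1 in R 4.3.3, which leaves 6 residual degrees of freedom, and p-values were Benjamini-Hochberg adjusted over 7528 genes. WT minus KO and set 1 minus set 2 were interaction terms, the latter in a fit of 24 arrays. The fit was tested on simulated data with noise drawn independently for each array. The shared deviations of arrays with the same replicate number, given below, were not simulated, so that test does not cover them. The members and gene lists were chosen with earlier results of these data known.

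Arrays that share a replicate number within a genotype deviated together over time. The correlations were 0.394, 0.467 and 0.662 in wild-type and 0.823, 0.713 and 0.699 in KO cells. Between genotypes the same numbers gave -0.0788, -0.0800 and -0.0667. The number was taken as a culture on these grounds alone, since the labels name no culture. Blocks were therefore set by genotype and number. Genes were named by rule: Usp18, the largest changes whose arrays did not overlap, and in each list the largest called and uncalled members; Irf7 falls outside it. Array medians of wild-type set 1 were 5.66 to 5.82, and 2 arrays a group limit the precision. P-values measure the spread between these arrays.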

Additional observations from a re-analysis of the deposited data

Results flagged for a closer look

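The change from 6 to 24 h differed between wild-type and KO microglia for Cxcl10, by -3.82 (limma, adjusted p = 0.0174), and for Acod1, by -4.12 (adjusted p = 0.0497). No array is shared between the genotypes. All 4 wild-type arrays show the direction, which follows from how the 2 genes were picked and gives no further support. Both calls were lost without either KO array at 24 h, KO replicate 2 at 6 h, or any untreated or 6 h wild-type array. Without either wild-type array at 24 h 1 gene passed.

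The change also differed between the 2 sets of wild-type arrays for 17 of the genes named in the report. It was lower in set 1 for Nfkbie by -2.79, Il1rn by -4.47, Tnf by -3.17, Acod1 by -4.09, Relb by -1.85, Icam1 by -2.93, Tnfsf9 by -2.29, Ch25h by -3.07, Slamf8 by -3.17, Gpr84 by -4.24 and Slc2a1 by -1.31. It was higher in set 1 for Gpr34 by 3.29, St8sia4 by 3.98, Dkk2 by 3.06, Pld4 by 1.86, Gpr155 by 2.99 and Wwp1 by 2.29. On the wild-type arrays of set 2, untreated ones included, Gpr34 was 2.48 to 2.92, Dkk2 2.67 to 2.90 and St8sia4 2.65 to 4.60. These genes were thus dim in set 2 throughout. Some of the genes with a lower change in set 1 had no clear rise at 6 h in set 2. Nfkbie was 4.78 and 5.47 there untreated and 4.98 and 5.49 at 6 h. Gpr84 was 8.96 and 9.05 and then 8.89 and 8.73, and Slamf8 6.32 and 4.65 and then 5.98 and 6.58. Untreated replicate 1 is an array in doubt. All 17 passed limma's interaction test over the 24 arrays, and again without the 2 arrays in doubt, with adjusted p of 0.000989 for Acod1, the lowest, to 0.0402 for Slc2a1, the highest. For Il1rn and Slc2a1 that fit reads another probe set than the fit of set 1. The 2 arrays in doubt are not part of this contrast and enter only its spread, so the differences were the same with and without them. The 17 were picked because they passed the fit of 24 arrays, so passing without the 2 arrays is no independent support. The part of the set or the culture in these differences was not tested.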

How the results depend on the processing

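The count of 1087 genes between 6 and 24 h was 842 in the fit of 24 arrays, 1311 without the 2 arrays in doubt (added after seeing the data), 1049 after quantile normalization, 969 with centred arrays, 938 without the filter, 1065 with a filter on the mean, 1110 with probe sets averaged and 1122 with a trend and robust prior. It was 1695 in a fit of the 6 wild-type arrays, 557 with a log2 change of at least 1, 2550 with the replicate block fixed and 2406 with it random. For 6 h against untreated the blocks gave 3458 and 3296 and the fold limit 1054, where the count was 1851. For 24 h against untreated, 331 became 175 with 24 arrays, 626 with 6, and 1312 and 987 with the blocks. In KO cells 334 became 556 without the arrays in doubt, 1524 and 1423 with the blocks, 197 centred and 173 with the fold limit. WT minus KO, 2, became 10 with 24 arrays, 62 without the arrays in doubt, 780 and 684 with the blocks, 1 with probe sets averaged and 10 with the trend. Set 1 minus set 2, 72, became 176 without the arrays in doubt, 446 and 487 with the blocks, 32 centred and 46 without the filter. The BV-2 list's 37 became 6 with 24 arrays, and a list drawn from set 2 instead held 1 gene, which fell. The cause of these moves was not tested.

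Leaving out 1 array gave 288 to 1242 between 6 and 24 h, 979 to 2124 at 6 h and 160 to 386 at 24 h against untreated, 0 to 314 in KO cells, 0 to 79 for WT minus KO, 8 to 132 for set 1 minus set 2 and 18 to 39 for the BV-2 list. Of 72 called genes named, 54 kept the call without any 1 array of set 1, and 24 lost it in the fit of 24 arrays. The replicate block, fixed or random, kept all 72 calls from 6 to 24 h and, beside the values in the report, changed no other call of that comparison among the genes named. Irf7, which did not pass, had a difference of -0.02 that was 0.09 without 24 h replicate 1, -0.18 without 6 h replicate 1 and 0.15 without 6 h replicate 2.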
